A study of Mus musculus with 8 samples.

Results

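A group of 9 acinar genes was followed in early pancreas buds, the digestive enzyme genes *Cpa1*, *Cpb1*, *Cela1*, *Ctrb1*, *Pnlip* and *Cel* and the transcription factor genes *Bhlha15*, *Rbpjl* and *Nr5a2*. They were chosen by name, as 6 enzymes and 3 regulators of the acinar cell, and make up 9 of the 24341 genes for which the authors deposited expression values. Total RNA of single mouse buds, all 8 labelled as strain CD1, was sequenced at E11.0. There were 5 WT and 3 Lats1/2PanKO libraries, and each library is a separate embryo. In Lats1/2PanKO embryos (Pdx1Creearly;Lats1f/f;Lats2f/f) Cre recombinase under the *Pdx1* promoter deletes the Hippo pathway kinase genes *Lats1* and *Lats2* in pancreatic progenitors, while cells that never expressed *Pdx1* keep them. All 8 buds had their mesenchyme pulled off with forceps before RNA was isolated. Mesenchyme genes were still read at high levels in all 8 libraries, so the levels given below are those of a mixed tissue. The study's methods also state that mutants were compared with WT or heterozygous littermates, and the labels name all 5 control libraries WT.

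Acinar cells make and store the enzymes that digest protein, fat and starch and release them into the gut as inactive precursors or active lipases. In the embryo they arise from multipotent progenitors at the tips of the branching epithelium, where carboxypeptidase A1 and the factor PTF1A appear before most other enzymes. PTF1A binds as a trimer with a class A basic helix-loop-helix partner and either RBPJ or its relative RBPJL, and the exchange of RBPJ for RBPJL accompanies the full activation of enzyme genes. Hippo signaling through LATS1/2 restrains the coactivators YAP and TAZ, which act with TEAD factors. The comparison asks at what level each acinar gene was present at this stage and whether the level differed between genotypes.

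Expression is given in FPKM, fragment counts scaled to transcript length and to the size of the library. Levels of different genes can therefore be set side by side. The worth of 1 fragment was read from 393 single-exon genes, of which 20 to 29 per library lay on whole-fragment steps that set it. A single fragment over 1000 bases gave 0.0992 to 0.106 FPKM in 7 buds, and 0.134 FPKM in WT replicate 5. The number of fragments behind a value therefore grows with transcript length. Genes whose mean reached 0.5 FPKM, 13777 in number, were compared by limma on the log2(FPKM + 1) scale with Benjamini-Hochberg adjustment. Over all of these genes, 0.0145% passed an adjusted p of 0.05 and 11.3% had an unadjusted p under 0.05. *Lats1* was between 14.1 and 16.6 FPKM in WT and between 10.1 and 13.8 FPKM in Lats1/2PanKO, with no overlap between the groups (adjusted p = 0.269, limma). *Lats2* was between 11.6 and 14.7 FPKM in WT and between 11.1 and 13.4 FPKM in Lats1/2PanKO, and these ranges overlapped. Gene totals count reads from the whole gene, so they do not resolve the deleted exons.

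The promoter windows of 4 enzymes are shown because they span the range seen among the enzymes, from the most abundant, *Cpa1*, through *Cela1* to *Ctrb1* and *Pnlip*, which were at or near 0. Each window runs from 250 bases before to 50 bases after the RefSeq transcription start, on GRCm38.p6 and in the direction of the gene. Capitals mark matches to the E-box CANNTG and to the TC-box TTTCCC on either strand, the parts of the element that PTF1 recognizes. The *Cpa1* window is chr6:30638968-30639267 on the plus strand, the *Cela1* window chr15:100687871-100688170 on the minus strand, the *Ctrb1* window chr8:111690961-111691260 on the minus strand and the *Pnlip* window chr19:58670115-58670414 on the plus strand.
Cpa1: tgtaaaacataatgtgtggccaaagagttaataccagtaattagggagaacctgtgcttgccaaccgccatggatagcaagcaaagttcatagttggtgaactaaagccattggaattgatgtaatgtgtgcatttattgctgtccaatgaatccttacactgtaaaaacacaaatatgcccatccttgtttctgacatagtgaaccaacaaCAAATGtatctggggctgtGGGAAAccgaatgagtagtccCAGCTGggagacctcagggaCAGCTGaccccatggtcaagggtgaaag
Cela1: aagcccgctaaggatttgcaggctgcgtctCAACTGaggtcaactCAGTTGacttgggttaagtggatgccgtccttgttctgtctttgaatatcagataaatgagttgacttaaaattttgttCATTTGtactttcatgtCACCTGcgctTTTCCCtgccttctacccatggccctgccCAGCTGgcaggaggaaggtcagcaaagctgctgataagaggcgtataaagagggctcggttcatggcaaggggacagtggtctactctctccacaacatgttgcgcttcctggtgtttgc
Ctrb1: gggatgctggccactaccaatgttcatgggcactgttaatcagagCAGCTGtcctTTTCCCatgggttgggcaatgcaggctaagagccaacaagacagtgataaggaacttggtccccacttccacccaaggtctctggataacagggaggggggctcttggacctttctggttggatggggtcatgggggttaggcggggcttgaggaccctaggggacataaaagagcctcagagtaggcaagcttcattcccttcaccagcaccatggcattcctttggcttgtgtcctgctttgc
Pnlip: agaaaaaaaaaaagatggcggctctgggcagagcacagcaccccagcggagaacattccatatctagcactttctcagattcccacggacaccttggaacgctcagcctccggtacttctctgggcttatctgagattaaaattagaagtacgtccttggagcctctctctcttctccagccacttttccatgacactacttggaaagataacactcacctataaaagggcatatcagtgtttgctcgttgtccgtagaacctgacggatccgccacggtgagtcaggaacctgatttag

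All 9 genes had a window in RefSeq, and *Nr5a2* had 2, which makes 10 windows. An E-box, which reads the same on both strands, lay in 9 of the 10 windows, and it lies in 72.3% of all 32851 promoter windows of this length. A TC-box lay in 6 of 10 windows, against 25.2% of all windows. The NR5A letters AAGGTCA were found in 2 windows (4.72% of all), those of *Cela1* and *Cel*, and the match in *Cel* shares its outer bases with an E-box. The TEAD letters GGAATG were found in 3 windows (14.7% of all), those of *Ctrb1*, *Pnlip* and the second *Nr5a2* start. An E-box and a TC-box at most 20 bases apart, a criterion chosen after the sequences were seen, lay in the windows of 4 enzymes, *Cpa1*, *Cela1*, *Ctrb1* and *Cel*, against 4.70% of all windows. The gap was 13 and 15 bases in *Cpa1*, 4 bases in *Cela1*, 4 bases in *Ctrb1* and 15 bases in *Cel*. The windows of *Cpb1*, *Rbpjl* and *Bhlha15* held E-boxes and no TC-box, and the *Pnlip* window held neither. These are matches of letters only, and the expression levels below do not follow them in order, as *Ctrb1* holds the pair and was close to 0.

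**Figure D1:**
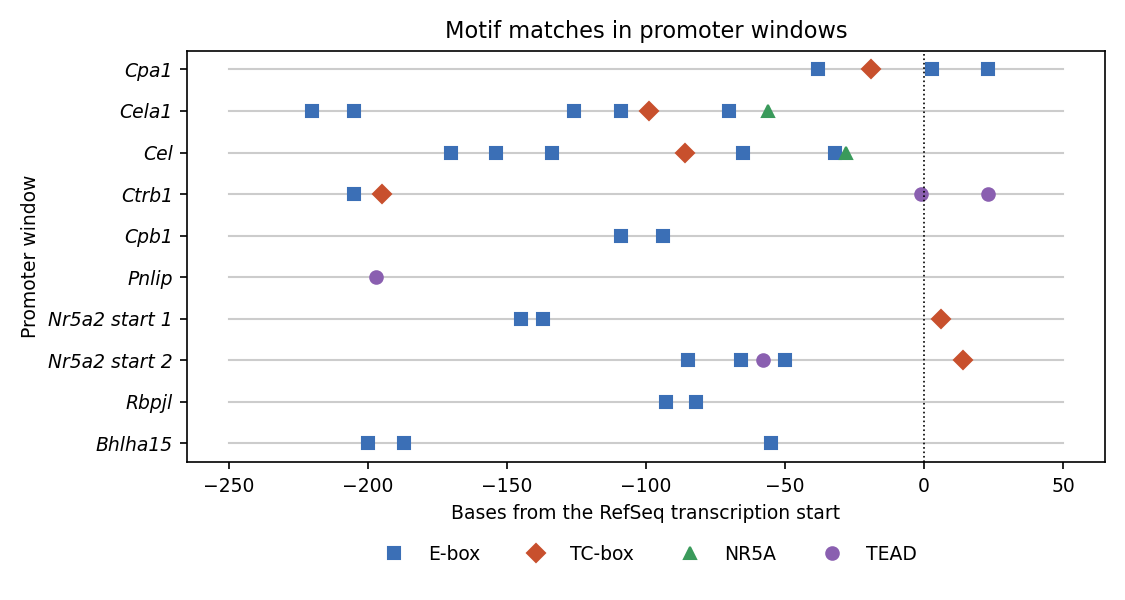
Matches to 4 motifs in the promoter windows of the 9 acinar genes, by distance in bases from the RefSeq transcription start (dotted line). Each row is a window, and *Nr5a2* has 2 starts. TC-boxes and E-boxes lie within 20 bases of each other in *Cpa1*, *Cela1*, *Cel* and *Ctrb1*.

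The levels formed steps. *Cpa1* was the highest of the 9 genes in the WT buds, at 16.8 ± 6.88 FPKM (SD, n = 5), which placed it above 73.9% of the 18891 genes found in at least 1 library. *Nr5a2* followed at 7.91 ± 1.80 FPKM, above 58.7% of those genes. *Rbpjl* at 1.70 ± 0.758 FPKM and *Cela1* at 1.59 ± 0.556 FPKM came next, above 38.2% and 37.6% of genes. *Bhlha15* and *Cel* stayed under 1 FPKM in every library, *Ctrb1* was above 0 in 1 library, and *Pnlip* and *Cpb1* are listed at 0 in all 8. Among neighbours in this order, the WT ranges of *Cpa1* and *Nr5a2* overlapped, as did those of *Rbpjl* and *Cela1*, of *Bhlha15* and *Cel*, and of *Cel* and *Ctrb1*. The ranges of *Nr5a2* and *Rbpjl* did not overlap in either genotype, and those of *Cela1* and *Bhlha15* were apart in WT and overlapped in Lats1/2PanKO. Of the 9 genes, 4 passed the filter of 0.5 FPKM, and 5 did not. Over all 24341 genes, 13777 passed this filter and 5450 are listed at 0 in all 8 libraries.

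**Figure D2:**
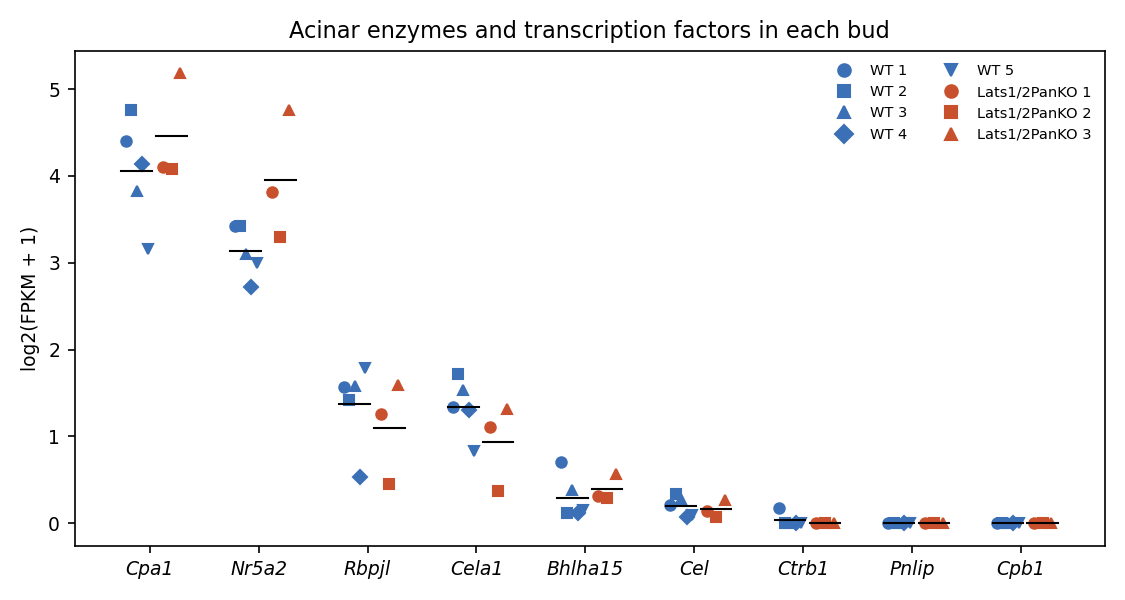
Level of each of the 9 acinar genes in each bud as log2(FPKM + 1), with 5 WT libraries in blue and 3 Lats1/2PanKO libraries in red. Bars mark group means. *Cpa1* and *Nr5a2* lie well above the other genes, the genotypes overlap for every gene, and Lats1/2PanKO replicate 3 is the highest library for *Cpa1* and *Nr5a2*.

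*Cpa1*, the digestive carboxypeptidase A1 and a marker of tip progenitors before it becomes an acinar enzyme, lies on chromosome 6 (30639221 to 30645361, plus strand). It was at 20.2, 26.0, 13.2, 16.6 and 7.90 FPKM in WT replicates 1 to 5 and at 16.3, 15.9 and 35.3 FPKM in Lats1/2PanKO replicates 1 to 3. The first 2 mutant buds sat in the middle of the WT range and the third lay above all WT buds. The log2 fold change was 0.40 (SE 0.37, 95% confidence interval -0.43 to 1.24, adjusted p = 0.745, limma), smaller than the spread between replicates, and it was -0.62 when each library was scaled to the epithelial genes *Epcam* and *Cdh1*. Without Lats1/2PanKO replicate 3 the mutant mean was 16.1 FPKM and the log2 fold change 0.037. These values rest on about 93.4 to 392 fragments in WT libraries and 242 to 552 in Lats1/2PanKO libraries.

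*Cela1* encodes elastase 1, a serine protease, on chromosome 15 (100674422 to 100687920, minus strand). Its FPKM were 1.52, 2.28, 1.89, 1.47 and 0.784 in the WT buds and 1.15, 0.294 and 1.49 in the Lats1/2PanKO buds. Lats1/2PanKO replicate 2 was the lowest library of all, and the other 2 mutant values lay within the WT range. The mean was 0.978 ± 0.616 FPKM in Lats1/2PanKO (SD, n = 3), with a log2 fold change of -0.41 (SE 0.26, 95% confidence interval -1.0 to 0.17, adjusted p = 0.603, limma). Without Lats1/2PanKO replicate 2, a library with about 3.28 *Cela1* fragments, the log2 fold change was -0.13.

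The remaining enzymes were at the edge of detection. *Cel*, the bile salt-stimulated lipase on chromosome 2 (28555820 to 28563362, minus strand), was at 0.153, 0.261, 0.212, 0.0495 and 0.0654 FPKM in WT and at 0.106, 0.0494 and 0.201 FPKM in Lats1/2PanKO. Over a transcript of 2063 bases these values correspond to 1.01 to 5.13 fragments per library. *Cel* was therefore above 0 in all 8 buds, and so few fragments cannot resolve a modest difference between genotypes. *Ctrb1*, the chymotrypsinogen B1 gene on chromosome 8 (111686510 to 111691010, minus strand), was at 0.132 FPKM in WT replicate 1, about 1.11 fragments, and is listed at 0 in the other 7 libraries. *Cpb1*, encoding carboxypeptidase B1 on chromosome 3 (20249484 to 20275729, minus strand), and *Pnlip*, encoding pancreatic lipase on chromosome 19 (58670365 to 58681788, plus strand), are listed at 0 in every bud of both genotypes. None of these 4 genes entered the test.

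The other genes of the acinar secretory program showed the same uneven start. Of 39 further secretory genes looked for, 36 were in the table, 14 are listed at 0 in all 8 libraries, 31 stayed below 1 FPKM in every library, and 1 was at 1 FPKM or more in all 8. Over all 24341 genes, 5450 are listed at 0 in all 8 libraries. The pancreatic amylase genes *Amy2a2*, *Amy2a4*, *Amy2a5* and *Amy2b* are listed at 0 throughout, as are *Cela3a*, *Cela3b* and *Ctrc*, although reads of near-identical amylase copies may be split or lost in counting. The gene at 1 FPKM or more throughout was *Clps*, which encodes the cofactor of pancreatic lipase. *Clps*, whose partner *Pnlip* is listed at 0, was at 27.4, 25.1, 26.5, 17.1 and 26.9 FPKM in WT and 23.2, 28.5 and 47.3 FPKM in Lats1/2PanKO. Its log2 fold change was 0.37 (SE 0.23, adjusted p = 0.593, limma), and -0.68 after scaling to *Epcam* and *Cdh1*.

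Of the 3 further secretory genes tested, *Clps* lay higher in Lats1/2PanKO and *Ctrl* and *Pnliprp1* lower, with a median log2 fold change of -0.19 against -0.01 over all tested genes. The genotypes were apart in 0 of the 3, where 7.51% of all tested genes did not overlap between genotypes and 4.46% had the mutant buds higher. In limma, 0 of the 3 had an unadjusted p under 0.05 and 0 an adjusted p under 0.05. *Ctrl*, which encodes a chymotrypsin-like protease, was at 0.793, 0.538, 0.683, 0.509 and 0.852 FPKM in WT and at 1.22, 0.127 and 0.257 FPKM in Lats1/2PanKO, with 1 mutant bud above and 2 below the WT range. *Pnliprp1*, a pancreatic lipase relative, was at 1.07 ± 0.593 FPKM in WT (SD, n = 5) and 0.744 ± 0.206 FPKM in Lats1/2PanKO (SD, n = 3).

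**Figure D3:**
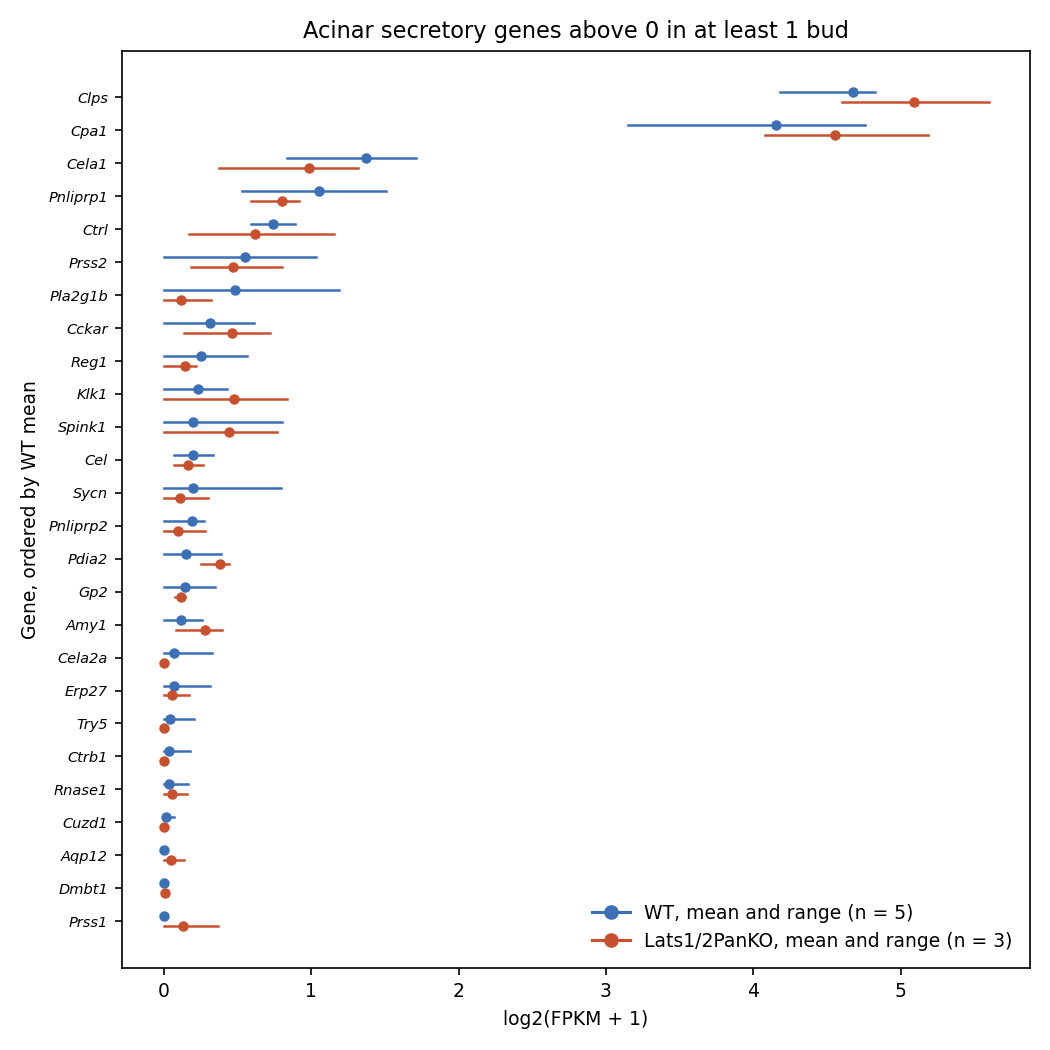
Secretory genes of the acinar cell that were above 0 in at least 1 bud, ordered by WT mean, on a log2(FPKM + 1) axis. Dots are group means and lines run from the lowest to the highest library (blue, 5 WT; red, 3 Lats1/2PanKO). *Clps* and *Cpa1* stand above the rest, and their ranges overlap between genotypes.

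*Nr5a2* encodes a nuclear receptor that is needed for acinar maturation and is also expressed in early pancreatic progenitors and liver. It lies on chromosome 1 (136843584 to 136960448, minus strand) and was at 9.70, 9.75, 7.56, 5.58 and 6.97 FPKM in WT and at 13.0, 8.80 and 26.0 FPKM in Lats1/2PanKO. Mutant replicates 1 and 3 lay above all WT buds and replicate 2 lay within the WT range. The means were 7.91 ± 1.80 (SD, n = 5) and 15.9 ± 8.96 FPKM (SD, n = 3), and the log2 fold change was 0.82 (SE 0.30, 95% confidence interval 0.14 to 1.5), or -0.17 after scaling to *Epcam* and *Cdh1*. Its unadjusted p was 0.0227 and its adjusted p 0.356 (limma), and an exact two-sided permutation test gave p = 0.0536, where 0.0179 is the smallest value that 5 against 3 libraries allow. Without Lats1/2PanKO replicate 3 the log2 fold change was 0.42 with an unadjusted p of 0.0932 in limma. In that library *Epcam* was at 137 FPKM and *Cdh1* at 94.9 FPKM, against 31.4 to 46.9 and 21.1 to 31.2 FPKM in WT, and the part of this in the *Nr5a2* value was not tested.

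*Rbpjl*, the acinar-restricted relative of RBPJ in the PTF1 complex, lies on chromosome 2 (164389393 to 164415448, plus strand). The table gives this locus to *Matn4* as well, which lies on the minus strand at a mean of 3.24 FPKM, and the reads were aligned as stranded. *Rbpjl* was at 1.96, 1.67, 1.99, 0.445 and 2.46 FPKM in WT and at 1.39, 0.364 and 2.02 FPKM in Lats1/2PanKO. A single bud of each genotype, WT replicate 4 and Lats1/2PanKO replicate 2, stood far below the others, with about 10.9 and 9.0 fragments, and the remaining buds of the genotypes overlapped. The log2 fold change was -0.28 (SE 0.33, 95% confidence interval -1.03 to 0.47, adjusted p = 0.805, limma). It was 0.047 without Lats1/2PanKO replicate 2, -0.49 without WT replicate 4, and -0.16 with both left out.

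*Bhlha15*, which encodes the secretory cell factor MIST1, lies on chromosome 5 (144190286 to 144194441, plus strand). It was at 0.631, 0.0884, 0.298, 0.0837 and 0.110 FPKM in WT and at 0.239, 0.223 and 0.482 FPKM in Lats1/2PanKO, under the filter and without a test across genes. The WT range enclosed all mutant values.

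The genes of the other PTF1 subunits, *Ptf1a* and *Rbpj*, had higher mean levels than *Rbpjl* in both genotypes. *Ptf1a* was at 2.91, 2.55, 3.02, 2.27 and 1.37 FPKM in WT and at 1.99, 2.61 and 1.61 FPKM in Lats1/2PanKO, so that every mutant bud lay within the WT range (log2 fold change -0.15, SE 0.20, adjusted p = 0.835, limma). *Rbpj*, the ubiquitous Notch effector that RBPJL replaces, was above *Rbpjl* in every library. It was at 23.9, 22.3, 24.0, 22 and 24.5 FPKM in WT and at 18.0, 19.4 and 18.1 FPKM in Lats1/2PanKO. All 3 mutant buds lay below all WT buds, with a log2 fold change of -0.32 (SE 0.064, unadjusted p = 0.000746, adjusted p = 0.140, limma). With library weights, which called 174 genes in all, the adjusted p of *Rbpj* was 0.0235 (limma). That was the lowest of the alternative fits without scaling to *Epcam* and *Cdh1*, and the highest was 0.460. Tested genes that were lower in all mutant buds make up 3.06% of the total. *Gata4* had a log2 fold change of 0.42 (adjusted p = 0.517) and *Gata6* of 0.34 (adjusted p = 0.732, limma), and both were below 0 after scaling to *Epcam* and *Cdh1*. *Xbp1*, a factor of secretory capacity, was at 32.3 ± 6.58 FPKM in WT (SD, n = 5) and 33.6 FPKM in Lats1/2PanKO (log2 fold change 0.075, or -0.97 with that scaling). Of 13 further acinar and PTF1 complex regulators looked for, 12 were in the table and 11 were tested, 6 higher and 5 lower in Lats1/2PanKO with a median log2 fold change of 0.075, and all 11 lower with that scaling. Of these, *Rbpj* and *Tcf12* had an unadjusted p under 0.05, both lower, and 0 passed the adjusted threshold. *Tcf12*, which encodes a class A partner of PTF1A, was at 54.9 ± 2.2 FPKM in WT (SD, n = 5) and 49.6 FPKM in Lats1/2PanKO.

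**Figure D4:**
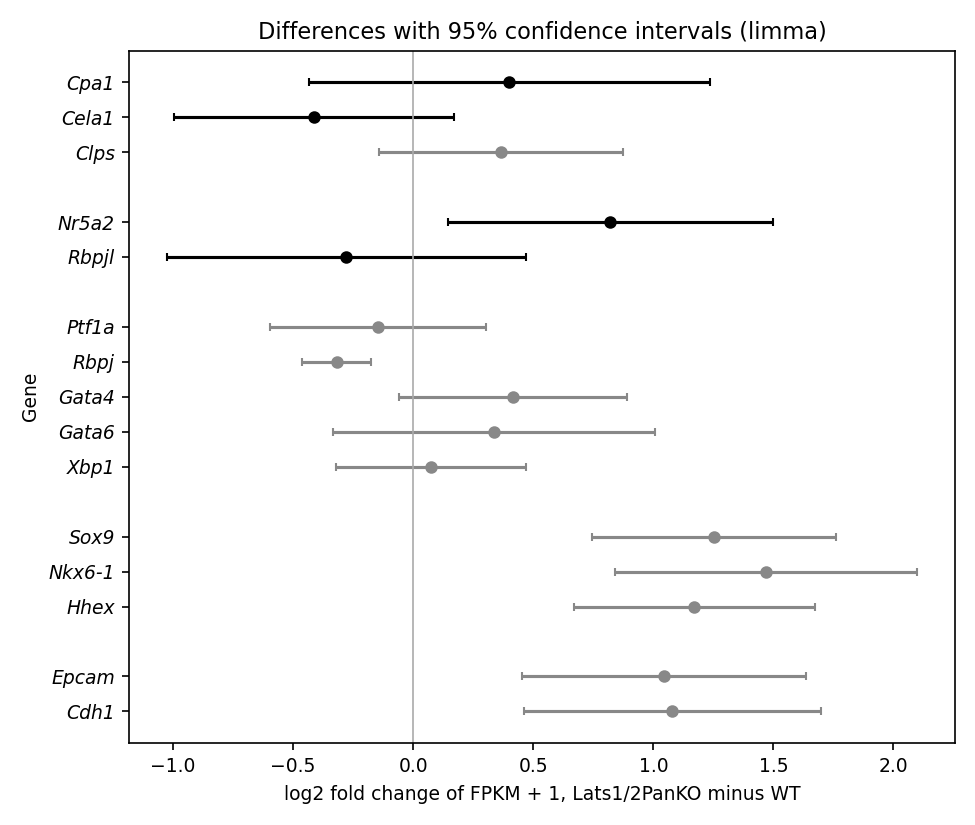
Log2 fold change of FPKM + 1, Lats1/2PanKO minus WT, with 95% confidence intervals from limma (5 WT and 3 Lats1/2PanKO libraries). Black marks members among the 9 acinar genes that were tested, and gray marks *Clps*, regulators, progenitor genes and epithelial genes. The interval of *Nr5a2* lies above 0 and those of *Cpa1*, *Cela1* and *Rbpjl* include 0, while *Cpa1*, *Nr5a2*, *Clps*, *Gata4*, *Gata6* and *Xbp1* turn negative when libraries are scaled to *Epcam* and *Cdh1*.

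Across the 4 acinar genes tested, 2 had a log2 fold change above 0 and 2 below, against 46.9% above 0 over all tested genes. Of the 4, 1 had an unadjusted p under 0.05 (background 11.3%, of which 6.29% higher and 4.99% lower), 0 of 4 passed an adjusted p of 0.05, and in 0 of 4 were the genotypes apart. The 2 tested enzymes had a median log2 fold change of -0.01 and the 2 tested regulators of 0.27, against -0.01 over all tested genes. Neither a genotype difference nor its absence was resolved for these genes, as the widest interval, that of *Cpa1*, ran from -0.43 to 1.24.

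Genes of the progenitors from which acinar cells arise, and of the epithelium as a whole, were followed beside the acinar genes. The 16 genes listed for multipotent progenitors also take in genes of the endocrine lineage, such as *Nkx2-2*. All 16 lay higher in Lats1/2PanKO, 11 with an unadjusted p under 0.05 and 0 with an adjusted p under 0.05, at a median log2 fold change of 0.71 (limma). Of the 16, 10 lay lower after scaling to *Epcam* and *Cdh1* (median 0.74 above that of all genes). *Sox9*, a progenitor and later duct factor, was at 29.0 ± 3.49 FPKM in WT (SD, n = 5) and 64.4, 48.3 and 110 FPKM in Lats1/2PanKO. Of 22 epithelial genes, 21 were tested and all 21 lay higher, 20 with an unadjusted p under 0.05 and 0 adjusted, at a median of 1.09, and 16 of them still lay higher after that scaling. The 21 include *Epcam* and *Cdh1*, which set the scale, so their scaled values are tied by construction. In limma, 6 epithelial and 2 progenitor genes passed the adjusted threshold when Lats1/2PanKO replicate 2 was left out. With replicate 3 left out instead, 4 and 0 passed. The summed FPKM of the epithelial genes was 279 to 353 in WT and 536 to 1267 in Lats1/2PanKO. Of 22 tested mesenchyme genes 19 lay lower and 3 higher (median -0.34, 6 lower and 1 higher with an unadjusted p under 0.05, summed FPKM 1426 to 1589 in WT and 1082 to 1431 in Lats1/2PanKO). All 14 endothelium genes lay lower too (median -0.38, 3 with an unadjusted p under 0.05, summed FPKM 187 to 312 and 135 to 204). The epithelial sum was higher in all 3 mutant buds than in any WT bud, and its part in the values of the acinar genes was not tested. In bulk RNA, fewer cells of a type and less RNA per cell cannot be told apart.

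Markers of other tissues that a bud could carry were followed too. Of 15 tested liver genes 14 lay higher in Lats1/2PanKO, 6 with an unadjusted p under 0.05 (summed FPKM 196 to 281 in WT and 240 to 626), and *Nr5a2* is expressed in liver as well. Stomach and duodenum genes were low, 16 of 19 below 1 FPKM in all libraries and *Fabp1*, *Gkn1* and *Gkn2* listed at 0 (summed FPKM 2.81 to 5.00 and 4.00 to 6.63). Red blood cell genes summed to 2667 to 15879 FPKM in WT and 8124 to 10275 FPKM in Lats1/2PanKO, and 11 of 11 tested lay higher with 0 at an unadjusted p under 0.05. Leukocyte genes lay higher in 6 of 10, 1 at an unadjusted p under 0.05 (summed FPKM 22.2 to 35.1 and 31.2 to 39.5). Nerve and neural crest genes lay higher in 7 of 10, 1 at an unadjusted p under 0.05 (26.2 to 34.9 and 28.3 to 44.6). After scaling to *Epcam* and *Cdh1* most of these genes lay lower, 10 of 14 for liver, 10 of 11 for red blood cells, 9 of 10 for leukocytes and 10 of 10 for nerve and neural crest. None of these lists had a gene with an adjusted p under 0.05 in limma on the values as deposited, and their part in the acinar values was not tested.

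Set against the epithelial genes *Epcam* and *Cdh1*, the tested acinar genes had fold changes below 0, as most genes did. Expressed as a percent of the geometric mean FPKM of *Epcam* and *Cdh1*, *Cpa1* was 61.4, 68.1, 49.0, 57.7 and 28.3% in WT and 29.9, 35.7 and 31.0% in Lats1/2PanKO. *Cela1* was 2.81 to 7.04% in WT and 0.660 to 2.12% in Lats1/2PanKO, with no overlap, and *Rbpjl* was 1.54 to 8.80% and 0.817 to 2.55%. The share of all genes without overlap on this scale was not counted. The geometric mean itself did not overlap, at 26.9 to 38.2 FPKM in WT and 44.5 to 114 FPKM in Lats1/2PanKO, which lowers the percent values of mutant buds for any gene. *Nr5a2* was 25.5 ± 3.90% in WT (SD, n = 5) and 22.2 ± 2.18% in Lats1/2PanKO (SD, n = 3), and these ranges overlapped. *Ptf1a* was 4.90 to 11.3% in WT and 1.41 to 5.87% in Lats1/2PanKO. In limma on values scaled this way, the log2 fold changes were -0.62 for *Cpa1* (adjusted p = 0.0774), -0.98 for *Cela1* (0.0146), -0.89 for *Rbpjl* (0.0148), -0.17 for *Nr5a2* (0.557) and -0.80 for *Ptf1a* (0.0166). This scaling calls 80.6% of 13839 tested genes and moves the median of all genes to -0.95, since *Epcam* and *Cdh1* themselves were higher in the mutant buds. Relative to that median, the difference was 0.33 for *Cpa1*, -0.02 for *Cela1*, 0.06 for *Rbpjl*, 0.78 for *Nr5a2* and 0.15 for *Ptf1a*. Because 1 FPKM is added after scaling, low genes shift less than abundant ones. These differences therefore cannot place *Cela1*, *Rbpjl* and *Ptf1a* against a typical gene. On the percent values, without the added 1 FPKM, log2 differences were -0.66 for *Cpa1*, -1.64 for *Rbpjl*, -0.19 for *Nr5a2* and -1.29 for *Ptf1a*. That of *Cela1* was lower than all of these. The median of all genes on the percent scale was not computed.

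**Figure D5:**
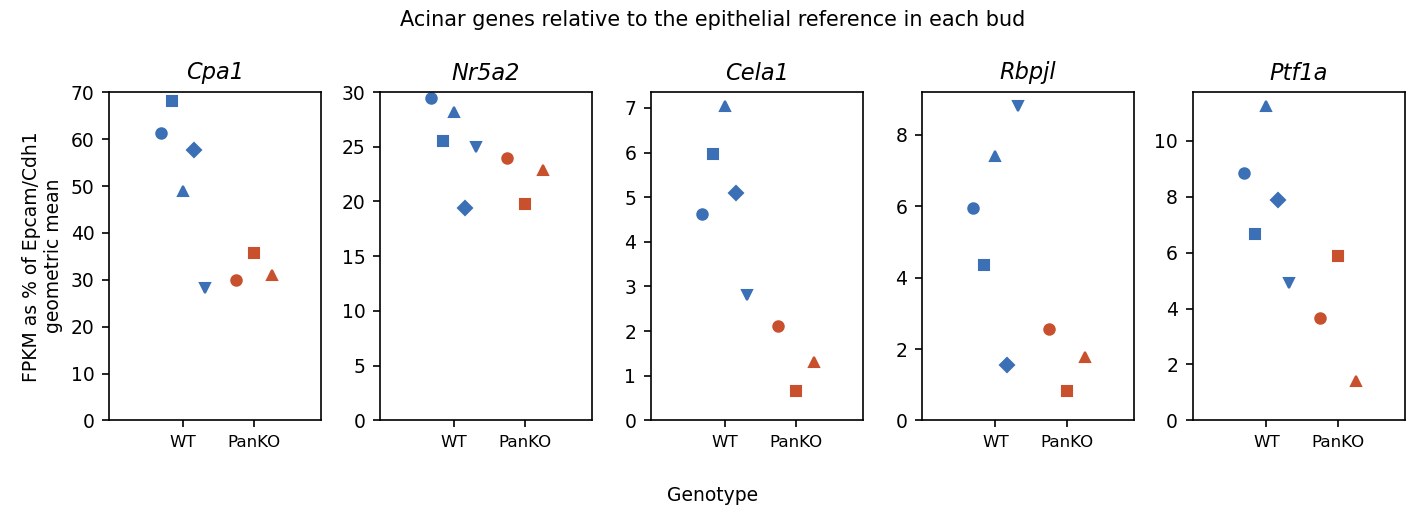
FPKM of 5 genes as a percent of the geometric mean FPKM of *Epcam* and *Cdh1* in the same bud, with 1 panel per gene and its own axis from 0 (blue, 5 WT; red, 3 Lats1/2PanKO; marker shapes follow the replicate number). *Cela1* values of the mutant buds lie below all WT values, on a scale that lowers most genes in these buds, and those of *Nr5a2* overlap with WT. The unscaled differences of *Cpa1* and *Nr5a2* have the opposite sign.

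Genes whose pattern over the 8 libraries was most like that of an acinar gene were named by Pearson's r of log2(FPKM + 1), as a description of libraries that share depth and tissue makeup. The genes most like *Cpa1* were *Sst*, *Myo1c*, *Slc6a4*, *Tob1* and *Lrrc10b*. *Sst*, the somatostatin gene, had r = 0.99 at up to 4.01 FPKM. Those most like *Nr5a2* were *Evpl*, *Nkx2-2*, *Kif12*, *Peg3* and *Neurod1*, all with r of 0.98 or 0.99, and 357 tested genes reached 0.9 with it. *Nkx2-2* and *Neurod1* encode factors of the endocrine lineage, with WT means of 12.6 and 5.52 FPKM and Lats1/2PanKO means of 20.6 and 12.1 FPKM. *Cela1* was most like *Gm5901*, *Scnn1a*, *Mib1*, *Zfp931* and *Ska1*, with 7 genes at 0.9 or more. Among the 4 tested acinar genes, r was 0.72 between *Cpa1* and *Nr5a2*, 0.45 between *Cela1* and *Rbpjl*, 0.44 between *Cpa1* and *Cela1*, 0.33 between *Nr5a2* and *Rbpjl*, 0.11 between *Cela1* and *Nr5a2*, and -0.026 between *Cpa1* and *Rbpjl*.

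*Rbpjl* was most like *Syne2*, *Birc6*, *Ubr4*, *Kif1b* and *Gper1*. The first 4 of these have transcripts of 21690, 15768, 15928 and 10233 bases, all within the longest 5% of tested genes with a known length (8171 bases or more). The transcript of *Rbpjl* itself has 2456 bases and that of *Gper1* 2537 bases, against a median of 3089 bases over those tested genes. *Syne2* was at 27.8 FPKM in WT replicate 4 and 25.6 FPKM in Lats1/2PanKO replicate 2, against 35.2 to 44.0 FPKM in the other 6 buds. These genes were picked for their likeness to *Rbpjl*, so that low values in the buds where *Rbpjl* was lowest follow from the choice. The part of transcript length in the *Rbpjl* values was not tested.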

How the data were processed

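Per the labels and the study's methods, stranded, ribosomal RNA-depleted libraries were sequenced from both ends. The submitters' processing notes name cutadapt 1.12, TopHat2 2.1.0, Cuffdiff 2.2.1 and the build mm10. The authors deposited FPKM per gene and library, computed with Cufflinks, and the methods state quantile normalization, although the columns do not share a distribution. The values were used as deposited. Coordinates are those of the table, counted from 1.

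The 9 genes and all gene lists were chosen with earlier results of these data known. Genotypes were compared with limma 3.58.1 (R 4.3.3), fitted to log2(FPKM + 1) under a trended variance. The fit took the 13777 genes whose mean reached 0.5 FPKM, and Benjamini-Hochberg adjustment ran over all of these. Because 1 FPKM is added, fold changes understate differences of low genes. FPKM are not counts, so no count model was used. Exact two-sided permutation tests used all 56 splits. The fit was tested on simulated data, where it recovered 200 of 200 genes changed by 1.5 on the log2 scale among 13777 and called 6 unchanged genes. The simulation set the spread by expression level alone, gave libraries no shared effects and changed none of the lowest genes. It therefore does not give the power reached in these buds. In the real values *Krt19*, with a log2 fold change of 2.36, had an adjusted p of 0.0747 (limma).

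Fragments were approximated from FPKM, the GENCODE M21 transcript length and the worth of 1 fragment, which corresponds to 9.39e+06 to 1.01e+07 aligned fragments in 7 libraries and 7.47e+06 in WT replicate 5 if FPKM were not rescaled. The p-values measure the spread between individual buds, and fragments cover counting error only. Named genes are the 9 genes, *Lats1*, *Lats2*, *Ptf1a*, *Rbpj*, *Gata4*, *Gata6*, *Xbp1*, *Epcam* and *Cdh1*, from each list the 3 with the smallest p and up to 3 of the most abundant, and the 5 genes most like each of the 4 tested. Amylase genes, *Cela3a*, *Cela3b*, *Ctrc*, *Matn4*, *Fabp1*, *Gkn1*, *Gkn2* and *Lipf* are named beyond this for their role, their position or after their values were seen. A further gene is not reported here. Promoter windows are RefSeq's on GRCm38.p6. Alternatives were a pseudocount of 0.1, no filter, a minimum of 2 FPKM, quantile normalization, median-ratio scaling, scaling to *Epcam* and *Cdh1*, library weights, no trend, a replicate block, and each library left out. Leaving out WT replicate 4 and Lats1/2PanKO replicate 2 together was added after the data were seen. Figures used matplotlib 3.10.9 in Python 3.11.15.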

Additional observations from a re-analysis of the deposited data

Results flagged for a closer look

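In the WT group, a library was called far from the others when its gap to the nearest, divided by the group's range, passed Dixon's critical value for 5 libraries, 0.71. Of 16 genes examined 2 did, where chance gives about 1 in 20. *Ctrb1* had a ratio of 1, because WT replicate 1 was at 0.132 FPKM, about 1.11 fragments, and the other 4 are listed at 0. With the other 4 at 0 the ratio can only be 1, so the rate of 1 in 20 does not hold for it. *Lats2* had a ratio of 0.765, because WT replicate 5 was at 11.6 FPKM and the others between 14 and 14.7 FPKM. Groups of 3 were not tested in this way. *Clps* was not among the 16 genes, and its WT replicate 4 was at 17.1 FPKM, against 25.1 to 27.4 FPKM in the other 4.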

How the results depend on the processing

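In the 18 alternatives, 17 of them planned, none of the 9 acinar genes passed an adjusted p of 0.05 except after scaling to *Epcam* and *Cdh1*. That scaling gave -0.62 for *Cpa1*, -0.98 for *Cela1*, -0.89 for *Rbpjl*, -0.17 for *Nr5a2*, -0.68 for *Clps*, -0.51 for *Gata4*, -0.61 for *Gata6* and -0.97 for *Xbp1*. It called 2 of the 9, 1 further secretory gene, 8 further regulators, 1 progenitor gene and 3 epithelial genes, among 11149 genes in all, because by construction it shifts every gene. With library weights *Cpa1* was -0.037 and *Xbp1* -0.047, and 1 further regulator, 6 progenitor genes and 11 epithelial genes were called. With a pseudocount of 0.1 FPKM 2 epithelial genes were called.

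Leaving out each library gave log2 fold changes of 0.037 to 0.59 for *Cpa1*, -0.61 to -0.13 for *Cela1*, -0.53 to 0.047 for *Rbpjl* and 0.42 to 1.15 for *Nr5a2*, with 0 to 1 of the 9 genes at an unadjusted p under 0.05, 0 to 2 progenitor genes called and 0 to 6 epithelial genes called. In limma, *Nr5a2* lost its unadjusted p under 0.05 without Lats1/2PanKO replicate 3 (0.0932) and kept it in the other 7 fits. Without Lats1/2PanKO replicate 2 the called genes were 2 progenitor and 6 epithelial genes, and without Lats1/2PanKO replicate 3 they were 0 and 4. Over all genes 2 were called, against 69 without Lats1/2PanKO replicate 2, 19 without Lats1/2PanKO replicate 3, 18 with a pseudocount of 0.1 FPKM, 174 with library weights, 7 with WT replicate 4 and Lats1/2PanKO replicate 2 left out together, 4 without WT replicate 4, 1 with the replicate block, 1 with no trend, 1 without Lats1/2PanKO replicate 1 and 0 without WT replicate 1, 2, 3 or 5. *Rbpjl* was 0.047 without Lats1/2PanKO replicate 2. *Xbp1*, at 0.075, lay between -0.064 (without WT replicate 5) and 0.16 when each library was left out, with -0.025 without Lats1/2PanKO replicate 2, and was -0.0078 without both WT replicate 4 and Lats1/2PanKO replicate 2. The cause of these reversals was not tested.

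Replicate numbers are shared by the groups, and deviations of same-numbered libraries correlated at 0.085, -0.097 and 0.069. Libraries of unlike number reached 0.135 (WT replicate 4 with Lats1/2PanKO replicate 2). These values cannot show whether buds shared a litter or a batch, and the libraries were treated as unpaired. With the replicate block *Nr5a2* was 0.64 (unadjusted p = 0.143, limma), 0 of the 9 genes had an unadjusted p under 0.05, and *Xbp1* was -0.088. Depth limits *Cel* and *Ctrb1*, which rest on at most 5.13 fragments per library, and *Cpb1* and *Pnlip*, which are listed at 0, while *Bhlha15* rests on 2.88 to 21 fragments.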

Other observations

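Digestive enzyme genes of stomach and intestine were looked for as a comparison with the pancreatic enzymes. Of 10 listed, 9 were in the table, 7 were below 1 FPKM in all 8 libraries, and *Lipf*, the gastric lipase gene, is listed at 0. The intestinal aminopeptidase gene *Anpep*, which is also expressed outside the gut epithelium, was at 6.21 ± 1.04 FPKM in WT (SD, n = 5) and 7.09 FPKM in Lats1/2PanKO (log2 fold change 0.17, adjusted p = 0.714, limma). *Mgam*, encoding maltase-glucoamylase, was at 0.0588 to 0.482 FPKM in WT and 0.499 to 0.928 FPKM in Lats1/2PanKO. Its genotypes did not overlap, as for 7.51% of tested genes, and an exact two-sided permutation test gave p = 0.0536. Its mean was under the filter and it was not tested across genes.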
